A study of Arabidopsis thaliana with 12 samples.

Results

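Phi and lambda class glutathione transferases were followed in Arabidopsis roots exposed to gold. The genes were chosen by symbol: GSTF3, GSTF6, GSTF7, GSTF11 and GSTF14 of the phi class and GSTL1 of the lambda class, which make 6 of the 800 features of the deposited gene table. Joined by transcript cluster, the array's term for all probes of a gene, they hold 17 of the 4977 features of the deposited exon table. GSTF3, GSTF6, GSTF7 and GSTL1 had a higher signal in gold-treated roots and GSTF11 and GSTF14 a lower one. At the gene level the signal of GSTF3 was 5.10-fold higher in gold-treated roots, and the signal of GSTF14 differed by -2.21 on the log2 scale (gold minus control), so that control roots had 4.63 times its signal in gold-treated roots.

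The treated group was roots of 12-day-old Col-0 seedlings whose roots stood in a 10 ppm gold solution (HAuCl4, the source of AuCl4-) at pH 4.2 for 12 h without nutrient medium. The control group was roots of the same ecotype and age kept in parallel in distilled water of that pH, so both groups had been moved out of MS medium, a mineral growth medium in which they had spent 5 days at 0.5X and 7 days at 1X strength. Each group had 3 biological replicates, each from the pooled roots of many seedlings, on AraGene-1_0-st arrays, and the 6 arrays were each deposited as 2 samples, 1 summarized by gene and 1 by exon, 12 in all. The deposited tables give 1 average log2 signal per group and feature, so no spread between replicates, error or test accompanies the values below, and n is not attached to them.

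Glutathione transferases join the tripeptide glutathione to reactive or foreign compounds, and the conjugates are carried into the vacuole by ABC transporters of the C subfamily. Phi class enzymes are found in plants and use a serine in the active site, and many are induced by pathogens, salicylic acid, herbicides or oxidative stress. Lambda class enzymes carry a cysteine in that place and remove glutathione from compounds such as flavonols rather than adding it. Among phi members, GSTF6 is known for its part in the synthesis of the defence compound camalexin.

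Both tables list a feature only where it passed the authors' thresholds of fold change and p-value. All 800 gene features and all 4977 exons differed by at least 2-fold between the group averages. A gene without a row therefore has no value here, which is not the same as an equal signal. Of the listed gene features 65.4% were higher in gold and 34.6% lower, and of the listed exons 54.6% were higher and 45.4% lower. The median difference was 1.39 on the log2 scale over the gene features that were higher and -1.24 over those that were lower. Against this background, 4 of the 6 genes were higher in gold, a share near that of the gene table. Of the 17 exons 12 were higher, a larger share than in the exon table, and 5 of these 12 belong to GSTL1 alone. The genes were picked with these rows known and exons of a gene are not replicates, so the counts are a description.

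**Figure D1:**
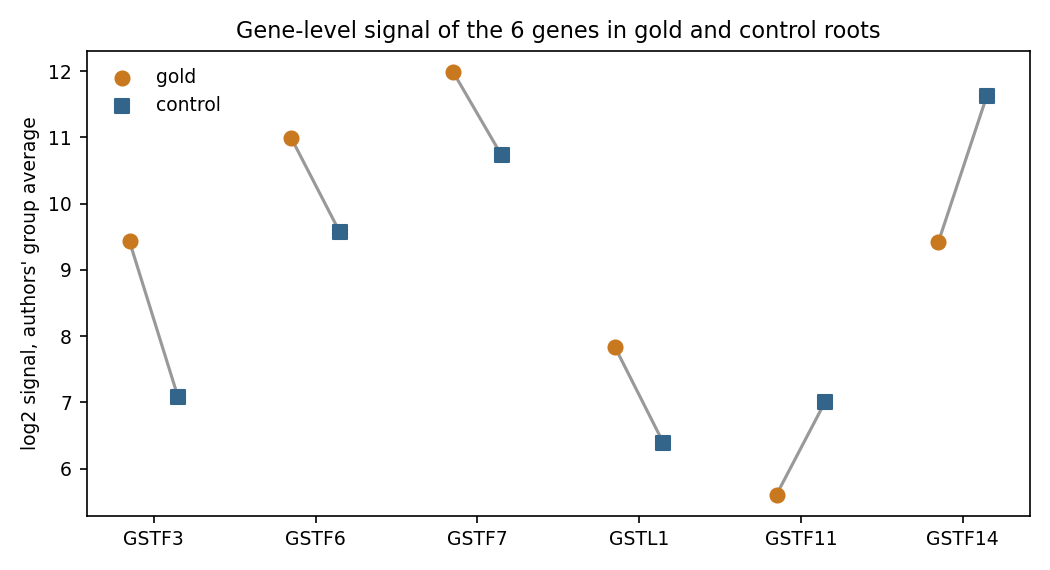
Authors' average log2 signal (vertical axis) of each of the 6 genes in gold-treated roots (circles, left) and control roots (squares, right), 1 value per group with no error bar, since the tables give none. GSTF3, GSTF6, GSTF7 and GSTL1 slope down from gold to control, and GSTF11 and GSTF14 slope up.

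GSTF3 (AT2G02930, chromosome 2), a phi class enzyme very similar to GSTF2, had the largest difference in the direction of gold of the 6. Its average log2 signal was 9.43 in gold-treated roots and 7.08 in control roots, a difference of 2.35. It ranked 44th of the 523 gene features that were higher in gold. A signal at least 4-fold higher in gold was listed for 85 features, or 10.6% of the gene table. GSTF3 has 2 listed exons, of which the brighter had log2 signals of 10.17 in gold and 7.75 in control and the dimmer had 6.16 in gold and 4.25 in control. Their differences of 2.42 and 1.91 lay on either side of the gene-level value. GSTF2 has no row in either table, and how far the probes of GSTF3 also read GSTF2 transcripts was not tested.

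GSTF3 is also the only one of the 6 genes in the study's list of qRT-PCR primers. The 2 oligonucleotides are shown because they define which stretch of this gene the study amplified. No part is in capitals, because no seed or motif applies. The qRT-PCR values were not analysed here.
GSTF3 forward: gcgtctgcctcattgcccagtttct
GSTF3 reverse: ctctcaagaacgtacacacactcac

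GSTF6 (AT1G02930) and GSTF7 (AT1G02920) are neighbours on chromosome 1, and both were higher in gold. GSTF6, known from dehydration and pathogen responses and from camalexin synthesis, where it conjugates indole-3-acetonitrile with glutathione, had a log2 signal of 10.99 in gold-treated roots and 9.57 in control roots. This is a 2.68-fold higher signal, or a difference of 1.42. GSTF7, a stress-induced enzyme of closely similar sequence, had 11.99 in gold-treated roots and 10.73 in control roots, a 2.39-fold higher signal and a difference of 1.26. Among the 523 features that were higher, GSTF6 had rank 242 and GSTF7 rank 324, so both lay away from the extremes of the table.

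All 3 listed exons of GSTF6 were higher, by 1.59 to 1.71 on the log2 scale, and each exceeded the gene-level difference. The exon of GSTF6 with the largest difference had log2 signals of 11.87 in gold and 10.16 in control, the next had 11.23 in gold and 9.60 in control, and the brightest had 12.44 in gold and 10.85 in control. The 2 listed exons of GSTF7 had 11.47 in gold and 10.15 in control, a difference of 1.32, and 12.68 in gold and 11.48 in control, a difference of 1.2. The differences of the exons of each gene thus spanned 0.12 on the log2 scale, and every GSTF6 exon had a larger difference than either GSTF7 exon. Along the chromosome, by the TAIR10.1 annotation, GSTF7 and GSTF6 stand beside the phi genes GSTF5 and GSTF4. GSTF5 and GSTF4 have no row in either table. Signal shared between these similar genes was not tested.

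GSTL1 (AT5G02780, chromosome 5) is the lambda class gene of the set. Its log2 signal was 7.84 in gold-treated roots and 6.39 in control roots, a 2.73-fold higher signal and a difference of 1.45. This gene has the most listed exons, and all 5 exceeded the gene-level difference. The exon with the largest difference, probe region 13496709, had log2 signals of 8.03 in gold-treated roots and 5.65 in control roots, which is 5.21-fold higher. The smallest, in probe region 13496708, had 7.96 in gold-treated roots and 6.28 in control roots, a difference of 1.68. The other 3 exons had 9.46, 9.19 and 9.45 in gold-treated roots against 7.34, 7.31 and 7.72 in control roots, with differences of 2.12, 1.88 and 1.73. The mean over the 5 exons was 1.96, or 0.51 above the gene-level value. GSTL3, the next protein-coding gene along the chromosome, and GSTL2 have no row in either table.

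**Figure D2:**
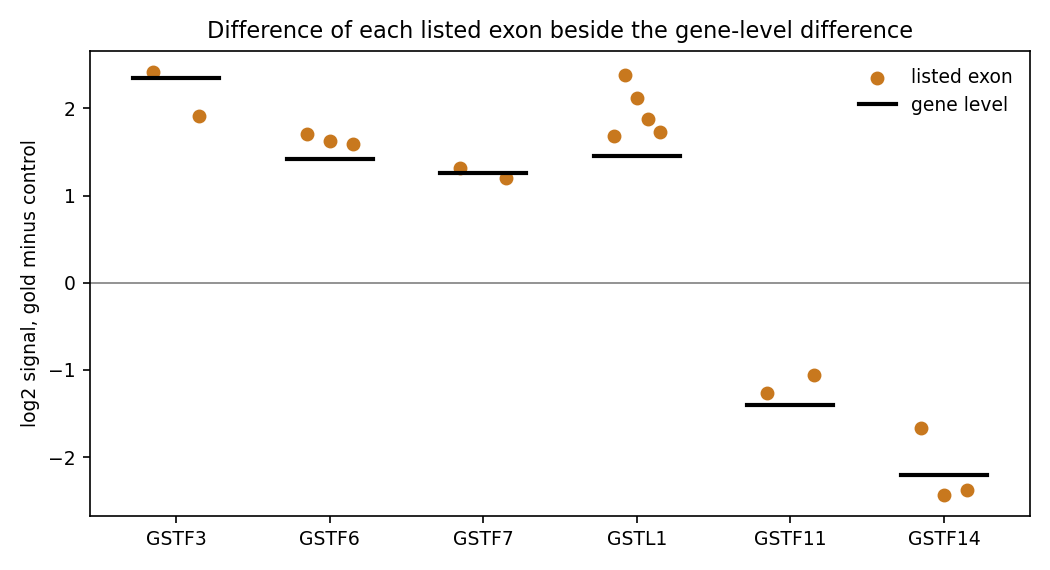
Difference in log2 signal, gold minus control (vertical axis), of each listed exon (points, in the order of their probe region numbers) beside the gene-level difference (black bar) of the 6 genes. All exons of GSTF6 and GSTL1 lie above the bar of their gene, while the exons of GSTF7 lie within 0.06 of it.

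GSTF14 (AT1G49860, chromosome 1) is a little characterised member of the phi class, and had the largest difference in the direction of control of the 6. Its log2 signal was 9.42 in gold-treated roots and 11.63 in control roots. With a difference of -2.21 it ranked 6th of the 277 gene features that were lower. A signal at least 4-fold lower in gold was listed for 8 features, or 1% of the gene table. Its 3 listed exons were all lower, to different degrees. The brightest exon, probe region 13350143, had 11.36 in gold-treated roots and 13.03 in control roots, a difference of -1.67. Probe region 13350144 had 9.08 in gold and 11.51 in control, and probe region 13350145 had 9.26 in gold and 11.64 in control, with differences of -2.43 and -2.38. The range of 0.76 over these exons was the widest of the 6 genes, against a median range of 0.49 over the 497 gene features with at least 2 listed exons.

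GSTF11 (AT3G03190, chromosome 3) is expressed together with genes of aliphatic glucosinolate synthesis, in which it is thought to supply the glutathione conjugate. Its log2 signal was 5.61 in gold-treated roots and 7.01 in control roots, with the control signal 2.64-fold that of gold-treated roots and a difference of -1.40. It ranked 77th of the 277 features that were lower. Its brighter listed exon had 6.86 in gold and 8.13 in control, and its dimmer one had 3.51 in gold and 4.57 in control. The exon differences of -1.27 and -1.06 were both smaller in size than that of the gene. GSTF11 was the only one of the 6 for which that held. In the TAIR10.1 annotation the span of GSTF11 overlaps that of NAC045, a transcription factor gene, and whether its probes also read NAC045 transcripts was not tested.

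Over the 497 gene features with at least 2 listed exons, the mean exon difference was larger in size than the gene-level one in 80.9%, and all exons exceeded it in 29.2%. GSTF6 and GSTL1 belong to these 29.2%. Since only exons past the thresholds are listed, their mean leaves out exons with smaller differences.

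**Figure D3:**
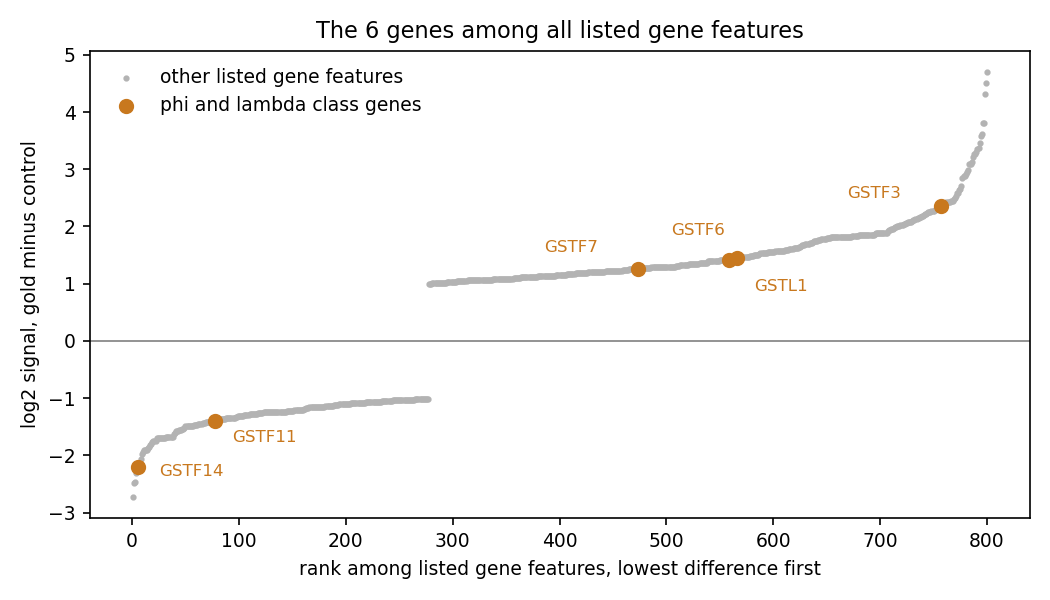
Difference in log2 signal, gold minus control (vertical axis), of all 800 listed gene features in rising order (horizontal axis, rank), with the 6 genes as large points. GSTF14 sits near the low end at -2.21, GSTF3 near the high end at 2.35, and the other 4 genes lie between them.

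Of the 27550 protein-coding genes of the TAIR10.1 annotation, 2.3% have a row in the gene table and 9.7% in either table. The share of the genes on the array that have a row was not computed, as the tables do not hold the other probes. The phi class counts 13 genes in Arabidopsis by the list used here, of which 5 have rows and 8 do not (GSTF2, GSTF4, GSTF5, GSTF8, GSTF9, GSTF10, GSTF12 and GSTF13). The lambda class counts 3, of which 1 has rows. The tau class, the other large plant class, counts 28 genes, of which 16 have rows in either table. All 14 tau features of the gene table were higher in gold, by 1.09 to 3.26 with a median of 1.65, against values of -2.21 to 2.35 with a median of 1.26 for the 5 phi features. Among tau exons 44 of 45 were higher, the exception being an exon of GSTU26 with log2 signals of 8.98 in gold and 10.66 in control. Among phi exons 7 of 12 were higher. Of all listed features 65.4% of gene features and 54.6% of exons were higher, so the phi exon share lies near that of all exons. The difference between the classes was not tested, as genes of a class are not replicates. None of the 8 genes of the dehydroascorbate reductase, zeta and theta classes has a row.

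Genes of glutathione supply and turnover and of the ABCC subfamily were present in the exon table only. Of 26 genes of glutathione synthesis, reduction and breakdown, 2 have a row. That is no larger a share than the 9.7% of all protein-coding genes with a row in either table. An exon of GSH1, the first enzyme of glutathione synthesis, had 7.53 in gold-treated roots and 5.67 in control roots. An exon of the glutathione peroxidase GPX2 had 10.05 in gold-treated roots and 8.84 in control roots, though its feature also names the locus AT2G31560. Of 5 carriers of the ABCC subfamily, some of whose members load glutathione conjugates into the vacuole, ABCC1, ABCC2 and ABCC4 have 7 listed exons. What these 3 carry, and across which membrane, was not tested. All 7 were higher in gold, by 1.00 to 1.75, as were 54.6% of all listed exons. Exons of a gene are not replicates, so the count describes 3 genes.

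Some genes of the pathway that GSTF6 serves had rows in the same direction as GSTF6. Of 7 further camalexin genes, CYP71A12, CYP71A13 and CYP71B15 have rows and 4 have none. Among all protein-coding genes 9.7% have a row in either table. All 9 exons of these 3 genes were higher in gold, by 1.32 to 4.07. Of all listed features 54.6% of exons and 65.4% of gene features were higher, and exons of a gene are not replicates. CYP71A12, a cytochrome P450 that converts indole-3-acetaldoxime, had gene-level log2 signals of 6.86 in gold and 3.55 in control. CYP71B15, also known as PAD3, makes camalexin in the last step, and had 6.01 in gold and 4.92 in control. CYP71A12 and CYP71A13 are close relatives, so their probes may read both, which was not tested.

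The pathway of GSTF11 had more rows in the direction of GSTF11. Of 23 further genes of aliphatic glucosinolate synthesis 7 have rows, all in the exon table, and 16 have none. Among all protein-coding genes 9.7% have a row in either table. The listed exons of 6 of the 7 genes were lower in gold, which makes 9 of the 11 exons of the list. CYP79F1, CYP83A1, MAM3 and BCAT4 rest on 1 listed exon each. The BCAT4 exon was dim, with 2.06 in gold and 3.12 in control. As none of these genes has a row at the gene level, the counts describe exons rather than whole genes. Of all listed exons 45.4% were lower. MAM1, which lengthens the methionine side chain, had 3 exons that were lower, with differences of -1.15 to -1.02. CYP79F1, the cytochrome P450 that turns the lengthened methionine into an aldoxime, had an exon with 5.56 in gold-treated roots and 8.42 in control roots. CYP83A1, which oxidises the aldoxime before glutathione is added, had 9.45 in gold and 10.52 in control in 1 exon. Exons of MAM3 and BCAT4, which act in chain lengthening, and of the side chain oxidase FMOGS-OX1 were also lower, with the BCAT4 exon naming a neighbouring locus as well. The exception was FMOGS-OX2, another such oxidase, with 2 exons at 5.03 and 3.99 in gold against 3.32 and 2.58 in control. With exons whose log2 signal was under 6 in both groups left out, 7 of 7 exons were lower. This cut was added after seeing the data. It takes out both FMOGS-OX2 exons, the BCAT4 exon and the dimmer FMOGS-OX1 exon. Of all listed exons that pass it, 56.5% were higher in gold.

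**Figure D4:**
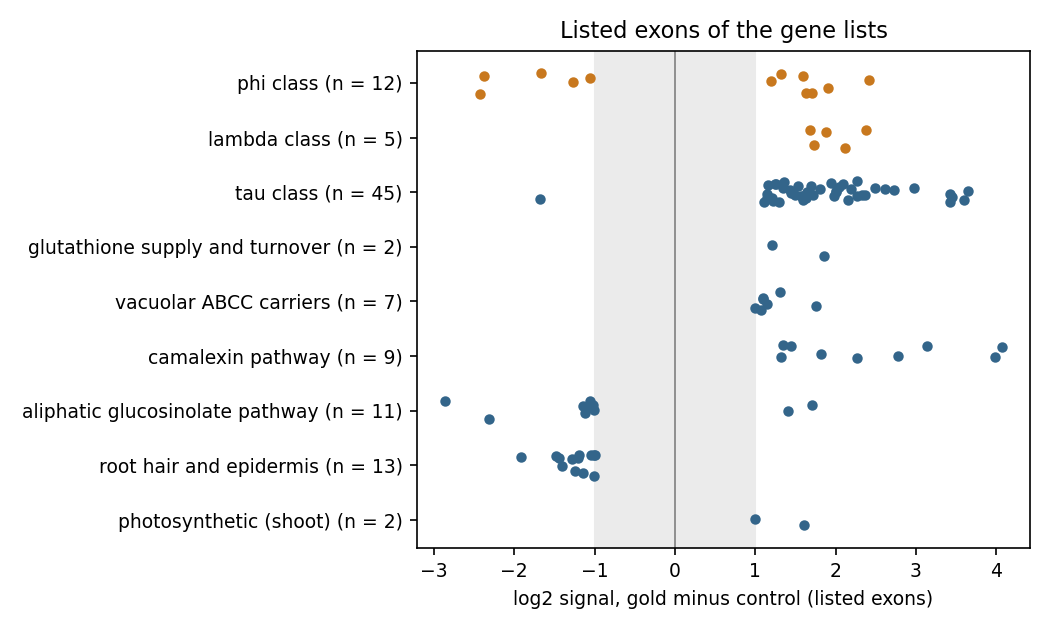
Difference in log2 signal, gold minus control (horizontal axis), of every listed exon (points, spread vertically for legibility) in the gene lists plotted, with phi and lambda exons in orange and the number of exons in brackets. The grey band is the range that the tables do not list. Camalexin and ABCC exons lie right of 0, root hair exons left of it, and phi exons on both sides.

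GSTF11 and GSTF14 were lower in whole roots, in which fewer cells of a type and less RNA per cell cannot be told apart. Genes known from root hairs and the epidermis were lower as well. Of the 19 listed for this tissue 10 have rows, and all 3 gene features and all 13 exons were lower in gold, with exon differences of -1.91 to -1. The exon at -1.91 was a dim one of LRX1, with 2.06 in gold and 3.97 in control. The next largest difference in size was -1.48, in an exon of COBL9. Over all listed features 34.6% of gene features and 45.4% of exons were lower, and 9.7% of all protein-coding genes have a row in either table. LRX1, an extensin-like wall protein of root hairs, had gene-level log2 signals of 8.89 in gold and 9.90 in control. PRP1, a root hair wall protein, had 5.57 in gold and 6.68 in control, and WER, which sets non-hair cells apart, had 7.18 in gold and 8.23 in control. The other 7 were RSL2, RSL4, EXPA7, EXPA18, COBL9, LRX2 and PIP5K3, each lower in 1 or 2 exons.

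Of the endodermis genes, CASP2, ESB1 and MYB36 have 6 listed exons together, all lower in gold, with differences of -1.38 to -1.04. The exon at -1.38 was a dim one of CASP2, with 2.93 in gold and 4.31 in control. These genes are only some of the 7 in the endodermis list, for which no count is given. Of all listed exons 54.6% were higher and 45.4% lower. The exons of ESB1 also name the locus AT2G28671. CASP2, a protein of the Casparian strip, had gene-level log2 signals of 8.65 in gold and 9.80 in control. Of 9 photosynthetic genes, which would mark shoot tissue, LHCB2.1 and LHCB3 have 1 exon each, both higher in gold, by 1.00 and 1.61. Among all protein-coding genes 9.7% have a row in either table. The LHCB2.1 exon was dim, with 3.88 in gold and 2.88 in control. The LHCB3 exon had 7.13 in gold and 5.52 in control and also names AT5G54280. The part of these cell types in the signal of GSTF14 and GSTF11 was not tested. Neither can the labelled tissue be checked fully, because root genes that differed less have no row.

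Each of the 6 genes has 10 to 15 other protein-coding genes within 20 kb. Among all protein-coding genes 2.3% have a row in the gene table and 9.7% in either table. Within 20 kb of them in the TAIR10.1 annotation, no other protein-coding gene has a row in the gene table except GSTF6 and GSTF7, each beside the other. In the exon table, PRR7, a circadian clock gene near GSTL1, had 3 exons higher by 1.01 to 1.23. HDG8 near GSTF11 had 1 exon at -1.09 and BUB3.2 near GSTF14 had 1 exon at -1.18. Both of these exons were dim, with 3.72 in gold and 4.81 in control for HDG8. The BUB3.2 exon had 3.46 in gold and 4.64 in control.

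The listed feature nearest to each gene was found as the smallest distance over the 2 group averages. This distance depends on the brightness of the probes as well as on the difference between groups, so it is no measure of a shared response. SULTR3;5, a sulfate transporter, was nearest to GSTF3, with 9.36 in gold and 7.10 in control at a distance of 0.073. AT1G53540, an HSP20-like chaperone, was nearest to GSTL1 with 7.77 in gold and 6.36 in control. The features nearest to GSTF6, GSTF7 and GSTF11 were AT5G49700, MSS1 and AT4G10370, at distances of 0.136, 0.153 and 0.086. For GSTF14 it was AT1G29025, an EF-hand protein with 9.60 in gold and 11.35 in control, whose difference of -1.75 was smaller in size than that of GSTF14.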

How the data were processed

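Gold-treated and control roots were compared from the authors' deposited tables at the gene and the exon level. Per the paper's methods, arrays were summarized with RMA in Expression Console and the result tables were made in the Transcriptome Analysis Console. Per the file headers, the deposited log2 signals are bi-weight averages over a group. The tables also hold the authors' fold changes, p-values and FDR, which were not used. As the tables used here give no value per array, nothing was tested and the precision is unknown beyond the small number of arrays.

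From the tables, log2 differences (gold minus control) and folds (2 to that power) were computed, exons were joined by transcript cluster and listed genes counted by locus. Of the 800 gene features 171 name no locus. All 148 loci of the 11 lists are in the TAIR10.1 table, used for names, gene order and the number of protein-coding genes only. The text names the 6 genes, list genes with rows, the closest feature to each gene and neighbours within 20 kb. One list gene is not reported here. The genes and lists were chosen with earlier results of these data known. The arithmetic of the differences and the matching of loci were checked on rows with known answers. Alternatives were exon means and medians, a signal minimum of 6, a fold of 3, rows that name a locus, and other joins. Tables were computed with pandas 2.3.3 and numpy 2.4.6 under Python 3.11.15, the Wilson 95% intervals used only to judge shares under the alternatives with scipy 1.17.1, and plots with matplotlib 3.10.9.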

Additional observations from a re-analysis of the deposited data

How the results depend on the processing

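The direction of all 6 genes was kept under the exon mean, the exon median and the mean of exons with a log2 signal of at least 6 in the brighter group. Every listed exon went in the direction of its gene, so these settings could not have turned any direction. The minimum of 6 took out only the dimmer exon of GSTF11, whose remaining exon had -1.27. With the SD over a gene's listed exons as the measure of spread, 3 genes moved: GSTF6 to 1.64 (mean, also with the minimum of 6) and 1.63 (median), GSTL1 to 1.96 (mean, also with the minimum) and 1.88 (median), and GSTF11 to -1.17 (mean and median). Listed exons are those past the thresholds, and this SD rests on only 2 to 5 of them per gene, which are not replicates. Moved is therefore a label and not a test. The share of gene features higher in gold moved to 69.3% with a signal of at least 6 and to 82.6% with a fold of at least 3, and that of exons to 56.5% and 68.9%, each outside the Wilson 95% interval of the full table (62.0% to 68.6% for gene features and 53.2% to 55.9% for exons), which covers counting error only. Each alternative is a subset of the same rows, and exons of a gene are not independent, so the interval served as a yardstick and not as a test. Counts of phi and lambda genes and of their exons were the same when matched by locus. The signal minimum for the list exons was added after seeing the data and turned no list's main direction; it left 1 of 2 photosynthetic exons. No paired analysis was possible because the tables give 1 average per group; leaving out replicates could not be run for that reason. Protein identity and promoter motifs were planned but not run, as no protein or promoter sequence was used here.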
